A study of Homo sapiens with 9 samples.

Results

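Plasminogen activation and blood coagulation are run by serine proteases, their cell-surface receptors and their inhibitors, and 10 genes of these systems were followed here by name: PLAU, PLAUR, PLAT, F3, TFPI, TFPI2, SERPINE2, SERPIND1, SERPINB2 and THBD. They are 10 of the 26364 genes counted in each library, and all 10 passed the filter on low counts as did 13704 genes in all. The libraries are polyA RNA sequencing of MDA-MB-231, a human triple-negative breast cancer cell line, in which the enzyme glyoxalase 1 (GLO1), which detoxifies methylglyoxal, was silenced with short hairpin RNAs. The conditions are shGLO1#2 and shGLO1#1, each 1 stable clone carrying an shRNA against GLO1, and shNT, 1 stable clone carrying a non-targeting shRNA. Each condition has 3 libraries, described by the submitters as biological replicates of a clone. All cells therefore carry an shRNA construct, and every p-value measures the spread between libraries of 1 clone, not between independently made clones. The comparisons address how the genes of these pericellular protease systems differ when GLO1 is depleted.

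Urokinase (PLAU) and tissue-type plasminogen activator (PLAT) cut plasminogen into plasmin, a broad protease that dissolves fibrin and matrix, and urokinase is held at the cell surface by its receptor PLAUR. Coagulation starts when tissue factor (F3), a membrane protein often abundant on carcinoma cells, binds factor VIIa, and ends in thrombin. Serpins are suicide inhibitors that trap such proteases, Kunitz-type inhibitors such as TFPI block their active site, and thrombomodulin (THBD) redirects thrombin towards activation of protein C.

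Library depth was 15314238 to 18495576 counts on genes. GLO1 itself, the check of the labels, had 14.7 ± 0.760 CPM in shGLO1#2, 65.4 ± 0.955 CPM in shGLO1#1 and 317 ± 5.63 CPM in shNT (SD, n = 3 each), where CPM is a gene's count scaled to a common library depth with TMM factors. Of 5 marker genes of the line (VIM, CD44, AXL, CAV1, KRT18), the summed level was 7048 to 7288 CPM in shGLO1#2, 5832 to 6574 CPM in shGLO1#1 and 6327 to 6965 CPM in shNT. Of the receptors whose absence defines triple-negative cells, ESR1 and PGR were at or under 13 counts over the 3 libraries of each condition, and ERBB2 RNA was present at 67.9 CPM in shGLO1#2, 75.5 CPM in shGLO1#1 and 79.8 CPM in shNT. Markers of the cells that make most clotting proteins in the body were near 0: 5 hepatocyte markers summed to at most 0.731 CPM in shGLO1#2, 0.684 CPM in shGLO1#1 and 0.848 CPM in shNT, and 5 platelet markers to at most 0.496 CPM in shGLO1#2, 0.432 CPM in shGLO1#1 and 0.134 CPM in shNT. For comparison, the 5 endothelial markers summed to 7.76 to 9.81 CPM in shGLO1#2, 6.27 to 8.02 CPM in shGLO1#1 and 4.43 to 5.80 CPM in shNT, with CDH5 at 0 in shGLO1#1 and shNT. Within that list PECAM1 rose to 3.21 CPM in shGLO1#2 and 2.71 CPM in shGLO1#1, against 0.856 CPM in shNT (edgeR adjusted p = 0.000601 and 0.00156), and its part in the results was not tested. Lists of 5 leukocyte and 5 fibroblast markers summed to at most 10.7 and 23.1 CPM in any library, and 5 of these 10 genes were tested. PTPRC and LUM fell in both clones, PDGFRB rose in shGLO1#2 (log2 1.10, edgeR adjusted p = 0.00776) and fell in shGLO1#1 (log2 -0.999, edgeR adjusted p = 0.0313), and LYZ and COL1A1 did not pass in either. In bulk RNA, fewer cells expressing a gene and less RNA per cell cannot be told apart.

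The activators and the initiator of coagulation went opposite ways. PLAU, PLAT and PLAUR were higher in both GLO1-depleted clones than in shNT in every library, F3 was lower in every library, and TFPI was slightly higher. A gene was said to rise or fall where edgeR's quasi-likelihood test gave a Benjamini-Hochberg adjusted p under 0.05 over all 13704 genes tested, and was called where its log2 fold change also exceeded 1 in size. Against shNT, 2 of the 10 genes were called in shGLO1#2, where 7.68% of all genes tested were called, and 2 in shGLO1#1, against 8.73% of all genes. These were F3, lower, and SERPIND1, higher, in each clone. F3 met the minimum of the filter on low counts in all 3 shNT libraries. SERPIND1 met it in 2 of the 3, so it was tested only with the help of the clones, where it is high. At any fold change 7 of the 10 passed in shGLO1#2 against 38.1% of all genes, and 8 of the 10 passed in shGLO1#1 against 45.7%. Of the 7 in shGLO1#2, 6 rose, as did 18.3% of all genes, and F3 fell, as did 19.8%. Of the 8 in shGLO1#1, 7 rose, as did 22.6% of all genes, and F3 fell, as did 23.1%. The median log2 fold change of the 10 was 0.25 in shGLO1#2, beside 0.0012 over all genes, and 0.38 in shGLO1#1, beside 0.0013 over all genes. Both comparisons use the same shNT libraries, so the values of the clones are not independent of each other. The 10 genes were chosen with earlier results of these data known. Their shares and medians beside those of all genes therefore describe the list and do not test it.

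**Figure D1:**
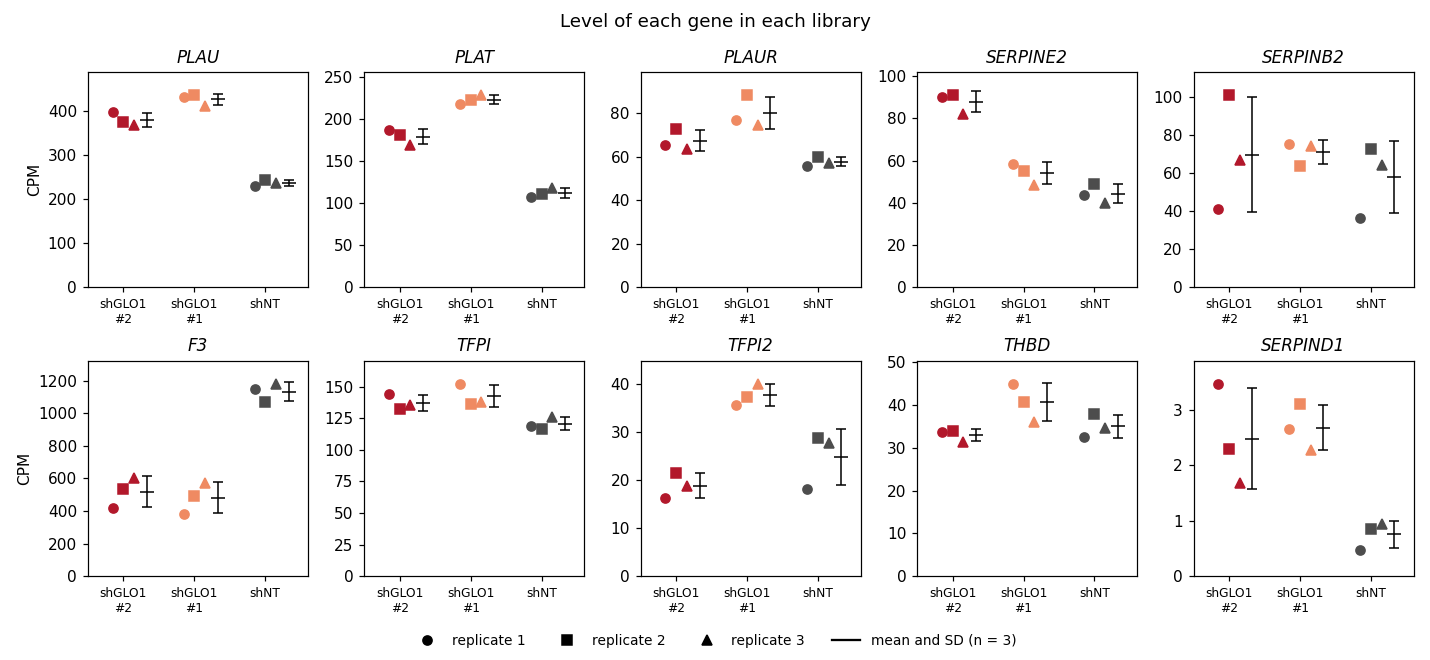
Level of each of the 10 genes (y axis, CPM, starting at 0 and scaled to each gene) in the 3 libraries of shGLO1#2, shGLO1#1 and shNT (x axis). Points are libraries with the replicate number as the symbol, and the bar beside them is the mean with its SD. F3 lies at 415 to 603 CPM in shGLO1#2 and 382 to 571 CPM in shGLO1#1, below all shNT libraries, while PLAU and PLAT lie above theirs.

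Urokinase RNA was higher in both GLO1-depleted clones. PLAU had 397, 374 and 367 CPM in shGLO1#2, 430, 436 and 411 CPM in shGLO1#1, and 230, 243 and 235 CPM in shNT, in replicates 1, 2 and 3. No library of either clone came down to the shNT range. The fold was 1.61 in shGLO1#2 (log2 fold change 0.68, SE 0.05, edgeR adjusted p = 3.75e-07) and 1.80 in shGLO1#1 (log2 0.85, SE 0.05, edgeR adjusted p = 4.84e-08). C10orf55, on the opposite strand over PLAU in the RefSeq annotation, had only 10 to 20 counts a library, against 3419 to 8006 for PLAU. The library kit does not mark strand, so reads of the pair could not be separated.

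PLAT, whose product is the activator best known for dissolving clots, also rose. It had 187, 180 and 169 CPM in shGLO1#2, 217, 222 and 228 CPM in shGLO1#1, and 107, 111 and 118 CPM in shNT. Again every library of both clones was above every shNT library. The log2 fold change was 0.67 in shGLO1#2 (SE 0.06, edgeR adjusted p = 1.02e-06) and 0.99 in shGLO1#1 (SE 0.06, edgeR adjusted p = 3.46e-08). The value in shGLO1#1 lies just inside the limit of 1: without shNT replicate 3, or without shGLO1#1 replicate 1, PLAT was called, and the highest value over all settings was 1.04.

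The urokinase receptor had smaller fold changes than its ligand. PLAUR had 65.5, 72.9 and 63.6 CPM in shGLO1#2, 77.0, 88.3 and 74.5 CPM in shGLO1#1, and 55.8, 60.0 and 57.1 CPM in shNT. All libraries of each clone were above the 3 of shNT. On the log2 scale PLAUR rose by 0.23 in shGLO1#2 (SE 0.08, edgeR adjusted p = 0.0314) and 0.47 in shGLO1#1 (SE 0.08, edgeR adjusted p = 0.000191). The smaller of these rested on single libraries: without shNT replicate 1, shNT replicate 3 or shGLO1#2 replicate 2 it no longer passed, with edgeR adjusted p up to 0.119.

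Of the serpins that inhibit the activators, SERPINE2 rose in both clones and SERPINB2 did not pass in either. SERPINE2, protease nexin 1, inhibits thrombin, urokinase and tissue-type activator at the cell surface. It had 90.3, 91.1 and 82.3 CPM in shGLO1#2, 58.5, 55.3 and 48.3 CPM in shGLO1#1, and 43.9, 49.0 and 40.03 CPM in shNT. The shGLO1#2 libraries stood clear of both other conditions, while 1 shGLO1#1 library, replicate 3, lay within the shNT range. The log2 fold change was 0.99 in shGLO1#2 (SE 0.09, edgeR adjusted p = 1.32e-06) and 0.29 in shGLO1#1 (SE 0.09, edgeR adjusted p = 0.0154). Without shNT replicate 2 or shGLO1#2 replicate 3 the shGLO1#2 value passed the limit of 1 (up to 1.07), and the shGLO1#1 value lost its adjusted p in 3 fits that each left out 1 library: shNT replicate 3, shGLO1#1 replicate 1 or shGLO1#1 replicate 2 (highest 0.0789).

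SERPINB2, plasminogen activator inhibitor type 2, is a largely intracellular serpin that inhibits urokinase. Its libraries spread widely, with 41.1, 101 and 67.0 CPM in shGLO1#2, 74.9, 63.5 and 74.0 CPM in shGLO1#1, and 36.5, 72.5 and 64.4 CPM in shNT. The conditions overlapped, and replicate 1 was the lowest in shGLO1#2 and in shNT but the highest in shGLO1#1. Neither difference passed: log2 0.27 in shGLO1#2 (95% interval -0.30 to 0.84, edgeR adjusted p = 0.458) and 0.29 in shGLO1#1 (-0.28 to 0.86, edgeR adjusted p = 0.392). Each shGLO1#2 library was above the shNT library of the same number. With the replicate number as a block over all 9 libraries, the difference was 0.25 (edgeR adjusted p = 0.247).

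Tissue factor was the only gene of the 10 that fell in both clones. F3 had 415, 534 and 603 CPM in shGLO1#2, 382, 490 and 571 CPM in shGLO1#1, and 1151, 1070.0 and 1182 CPM in shNT. The ranges of the clones and of shNT did not meet. F3 averaged 517 ± 95.1 CPM in shGLO1#2 and 481 ± 94.7 CPM in shGLO1#1, against 1134 ± 57.9 CPM in shNT (SD, n = 3 each), or 0.456 times the shNT level in shGLO1#2 and 0.424 times in shGLO1#1. The log2 fold change was -1.13 in shGLO1#2 (SE 0.13, edgeR adjusted p = 1.95e-05) and -1.24 in shGLO1#1 (SE 0.13, edgeR adjusted p = 7.32e-06). Replicate 1 was the lowest and replicate 3 the highest F3 library in both clones, with the highest 1.45 times the lowest in shGLO1#2 and 1.49 times in shGLO1#1, against 1.10 times in shNT. Without shGLO1#2 replicate 1 the log2 fold change in that clone was -0.99, inside the limit of 1, so that this call rests on that library, although its adjusted p stayed at or below 0.000159 over all settings.

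The promoter of F3 is shown with those of 4 others, because F3 and SERPIND1 were the called genes and because PLAUR, TFPI2 and SERPINB2 share with F3 a motif of the transcription factor AP-1. Sequences are the 250 bases before the start of each gene from RefSeq (GRCh38.p14), where 8 of the 10 genes were matched, PLAT and THBD being the others. The windows are chr1:94541760-94542009 on the minus strand for F3, chr19:43670170-43670419 minus for PLAUR, chr7:93890754-93891003 minus for TFPI2, chr18:63887455-63887704 plus for SERPINB2 and chr22:20773863-20774112 plus for SERPIND1. Capitals mark matches, on either strand, to 4 motifs. These are the site of the factor AP-1, spelt TGANTCA where N is any base, and the GC box bound by factors of the Sp family, spelt GGGCGG. The others are the TATA box of core promoters, spelt TATAAA in this search, and the NF-kB consensus. No matches overlapped.
F3: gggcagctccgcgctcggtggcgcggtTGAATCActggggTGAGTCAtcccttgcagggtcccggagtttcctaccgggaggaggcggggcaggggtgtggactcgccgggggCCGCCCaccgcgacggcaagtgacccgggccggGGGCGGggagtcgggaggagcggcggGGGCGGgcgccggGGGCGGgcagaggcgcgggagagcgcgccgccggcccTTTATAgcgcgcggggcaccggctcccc
PLAUR: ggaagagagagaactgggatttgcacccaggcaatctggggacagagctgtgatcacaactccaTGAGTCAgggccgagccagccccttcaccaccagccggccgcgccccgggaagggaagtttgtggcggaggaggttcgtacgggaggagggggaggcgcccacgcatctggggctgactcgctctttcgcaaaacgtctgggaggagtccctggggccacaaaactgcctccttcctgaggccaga
TFPI2: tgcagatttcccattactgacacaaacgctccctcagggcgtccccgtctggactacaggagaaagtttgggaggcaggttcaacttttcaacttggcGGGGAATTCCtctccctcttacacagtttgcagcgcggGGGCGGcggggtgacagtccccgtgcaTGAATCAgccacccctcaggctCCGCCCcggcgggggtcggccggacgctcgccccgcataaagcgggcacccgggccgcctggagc
SERPINB2: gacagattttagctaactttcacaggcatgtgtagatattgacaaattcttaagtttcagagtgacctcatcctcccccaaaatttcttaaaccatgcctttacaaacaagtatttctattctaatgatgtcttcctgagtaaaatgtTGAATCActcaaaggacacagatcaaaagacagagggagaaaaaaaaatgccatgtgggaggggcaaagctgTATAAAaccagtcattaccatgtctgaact
SERPIND1: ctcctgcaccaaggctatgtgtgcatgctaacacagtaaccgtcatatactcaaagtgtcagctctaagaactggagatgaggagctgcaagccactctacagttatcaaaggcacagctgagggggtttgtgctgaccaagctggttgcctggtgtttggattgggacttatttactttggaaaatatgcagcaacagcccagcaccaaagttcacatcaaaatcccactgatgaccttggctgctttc

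Searched in the window that also takes in the first 50 transcribed bases, AP-1 letters occurred in 4 of the 8 matched promoters and in 7.71% of all 35116 promoters of the same table and length. F3 held AP-1 letters at -223 to -217 and at -210 to -204 from the start, PLAUR at -186 to -180, TFPI2 at -87 to -81 and SERPINB2 at -102 to -96. The carriers did not share a direction: F3 fell in both clones, PLAUR rose in both, TFPI2 rose in shGLO1#1 alone by this test, and SERPINB2 did not pass in either. GC box letters were in 3 of the 8 (F3, SERPINE2, TFPI2) against 45.0% of all promoters, TATA letters in 2 (F3, SERPINB2) against 11.5%, the NF-kB consensus in 1 (TFPI2) against 11.3%, and the cAMP response element (TGACGTCA) in 0 against 1.85%. SERPIND1, PLAU and TFPI held none of these letters in the window. A match describes the sequence and does not show that a factor binds there. The part of AP-1 or of any other factor in these changes was not tested.

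The inhibitors of the tissue factor complex changed little or in 1 clone. TFPI, the Kunitz-type inhibitor of factor Xa and of the tissue factor and factor VIIa complex, had 145, 132 and 135 CPM in shGLO1#2, 153, 137 and 138 CPM in shGLO1#1, and 119, 117 and 126 CPM in shNT. All libraries of both clones were above those of shNT, by a narrow margin. The log2 fold change was 0.19 in shGLO1#2 (SE 0.06, edgeR adjusted p = 0.0252) and 0.24 in shGLO1#1 (SE 0.06, edgeR adjusted p = 0.00543). The shGLO1#2 rise was lost without shNT replicate 1, shNT replicate 2 or shGLO1#2 replicate 1 (edgeR adjusted p up to 0.0912).

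Since F3 fell while TFPI did not, their count ratio within a library, in which library scaling cancels, separated the conditions. Ratios of these genes restate the values above free of library scaling and are not separate support. There were 2.87, 4.03 and 4.46 F3 counts per TFPI count in shGLO1#2, 2.51, 3.58 and 4.13 in shGLO1#1, and 9.67, 9.15 and 9.35 in shNT. The lowest shNT ratio was above the highest of either clone. PLAU and F3 moved apart in the same libraries: there were 0.955, 0.700 and 0.609 PLAU counts per F3 count in shGLO1#2, 1.13, 0.889 and 0.719 in shGLO1#1, and 0.200, 0.227 and 0.199 in shNT. In both clones replicate 1 gave the highest PLAU to F3 ratio and replicate 3 the lowest, and no library of either clone reached down to the shNT range.

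**Figure D2:**
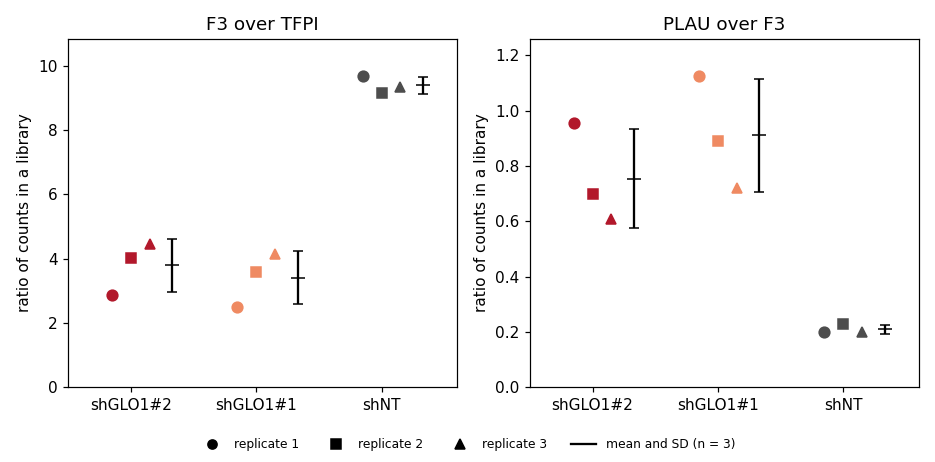
Ratio of the counts of F3 to TFPI (left) and of PLAU to F3 (right) in each library of shGLO1#2, shGLO1#1 and shNT, on y axes that start at 0. Points are libraries, bars are the mean and SD of 3. The F3 to TFPI ratio is 9.15 to 9.67 in shNT and at most 4.46 in the clones, and the PLAU to F3 ratio is at least 0.609 in the clones and at most 0.227 in shNT.

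TFPI2, a second Kunitz-type inhibitor that is deposited in matrix and inhibits plasmin, behaved differently in the clones. It had 16.3, 21.6 and 18.7 CPM in shGLO1#2, 35.7, 37.4 and 40.1 CPM in shGLO1#1, and 18.1, 28.8 and 27.7 CPM in shNT. The shGLO1#1 libraries were all above shNT (log2 0.60, SE 0.14, edgeR adjusted p = 0.00394). The shGLO1#2 libraries overlapped shNT only through shNT replicate 1 (log2 -0.40, 95% interval -0.72 to -0.07, edgeR adjusted p = 0.0515). With the replicate number as a block, the same difference was -0.39 with an edgeR adjusted p of 0.00387. This block pairs the libraries of shGLO1#2 and shNT, but it was fitted over all 9 libraries, shGLO1#1 included. It also passed without shNT replicate 1, without shGLO1#2 replicate 2, with no filter on low counts and by DESeq2, so whether TFPI2 fell in shGLO1#2 depends on the setting.

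The thrombin regulators THBD and SERPIND1 differed in level and in behaviour. THBD had 33.7, 33.9 and 31.3 CPM in shGLO1#2, 45.0, 40.7 and 36.1 CPM in shGLO1#1, and 32.5, 38.0 and 34.6 CPM in shNT. Each clone overlapped shNT, with log2 -0.09 in shGLO1#2 (95% interval -0.28 to 0.11, edgeR adjusted p = 0.496) and 0.21 in shGLO1#1 (0.02 to 0.40, edgeR adjusted p = 0.0662).

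SERPIND1, heparin cofactor II, inhibits thrombin in the presence of glycosaminoglycans and is made mainly by liver. It was the least expressed of the 10, with 57, 41 and 27 counts (3.47, 2.29 and 1.68 CPM) in shGLO1#2, 43, 57 and 40 counts (2.65, 3.10 and 2.28 CPM) in shGLO1#1, and 7, 13 and 17 counts (0.470, 0.848 and 0.941 CPM) in shNT. Even so the ranges did not meet. The log2 fold change was 1.69 in shGLO1#2 (95% interval 0.98 to 2.40, edgeR adjusted p = 0.00108) and 1.80 in shGLO1#1 (1.11 to 2.50, edgeR adjusted p = 0.000487), and it stayed called in all settings. The minimum of the filter on low counts was met in 2 of the 3 shNT libraries and in all libraries of the clones. SERPIND1 was thus tested only with the help of the clones, so its call and the gap between the ranges are description only. In the RefSeq annotation SERPIND1 lies on chromosome 22 inside PI4KA, a lipid kinase gene on the opposite strand that had 1226 to 1610 counts a library, and without strand a read from PI4KA that falls on a SERPIND1 exon cannot be told apart. PI4KA itself was 0.16 higher in shGLO1#2 and 0.14 higher in shGLO1#1 on the log2 scale (edgeR adjusted p = 0.0295 in shGLO1#2 and 0.0417 in shGLO1#1). The part of such reads in the SERPIND1 counts was not tested.

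**Figure D3:**
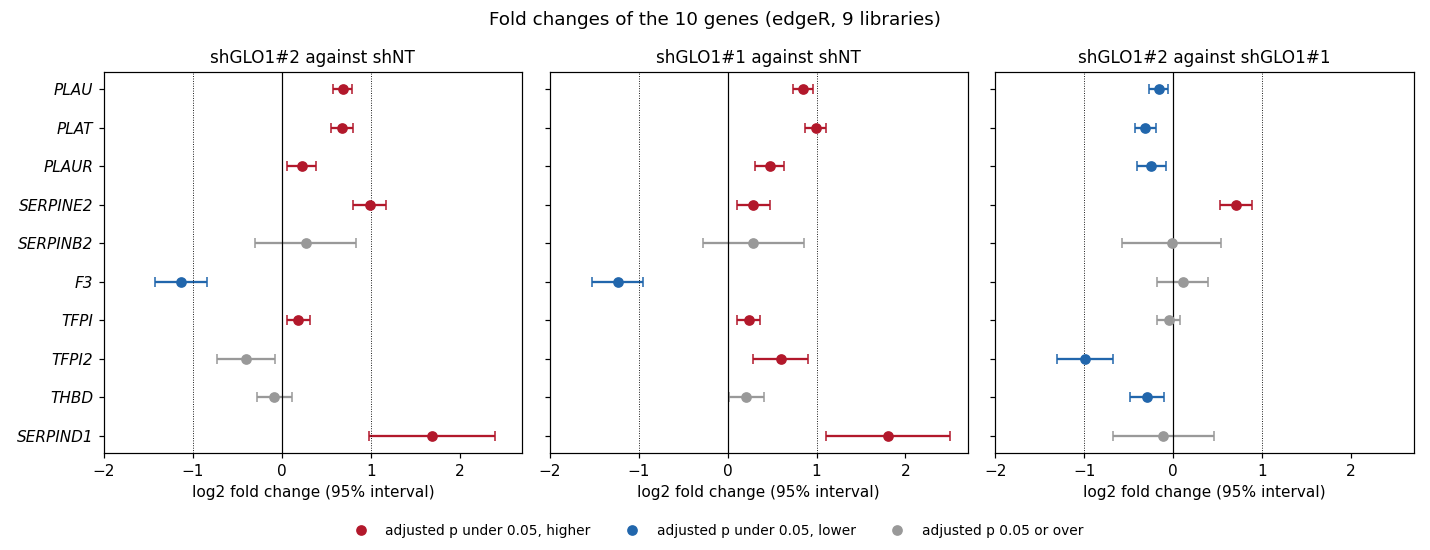
Log2 fold change (x axis, edgeR) with its 95% interval for each of the 10 genes, for shGLO1#2 against shNT, shGLO1#1 against shNT and shGLO1#2 against shGLO1#1. Red and blue mark an adjusted p under 0.05, higher and lower, grey the rest, and dotted lines stand at a log2 fold change of 1 and -1. F3 (-1.13 in shGLO1#2, -1.24 in shGLO1#1) and SERPIND1 (1.69 in shGLO1#2, 1.80 in shGLO1#1) are past the lines.

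The clones were then compared with each other. None of the 10 was called between shGLO1#2 and shGLO1#1 by edgeR, and 0 by DESeq2, where 7.09% of all genes were called. At any fold change 6 of the 10 passed, against 46.5% of all genes, and the same 6 had an unadjusted p under 0.05. SERPINE2 was higher in shGLO1#2, where 22.8% of all genes were higher, and PLAU, PLAUR, PLAT, TFPI2 and THBD were lower, where 23.7% of all genes were lower. For each of the 6 the libraries of the clones did not overlap, and the share of all genes without overlap was not counted.

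The difference in TFPI2 was the largest in size: shGLO1#2 averaged 18.9 ± 2.68 CPM and shGLO1#1 37.7 ± 2.26 CPM (log2 -0.998, SE 0.15, edgeR adjusted p = 9.62e-05). This lies on the limit of 1 and was called in 5 of the other settings, the replicate block among them. SERPINE2 averaged 87.9 ± 4.89 CPM in shGLO1#2 and 54.0 ± 5.22 CPM in shGLO1#1 (log2 0.70, SE 0.08, edgeR adjusted p = 1.70e-05). The other 4 differed less, by log2 -0.32 for PLAT (edgeR adjusted p = 0.000412), -0.30 for THBD (0.0143), -0.25 for PLAUR (0.0148) and -0.17 for PLAU (0.0150). The last 3 each lost the threshold when single libraries were left out: THBD without shGLO1#1 replicate 1 or shGLO1#2 replicate 3, PLAUR without shGLO1#1 replicate 2 or shGLO1#2 replicate 3, and PLAU without shGLO1#1 replicate 2, shGLO1#2 replicate 2 or shGLO1#2 replicate 3. For F3 the clones differed by log2 0.10 (95% interval -0.18 to 0.39), for TFPI by -0.05 (-0.18 to 0.08), for SERPIND1 by -0.11 (-0.68 to 0.45) and for SERPINB2 by -0.02 (-0.58 to 0.54). The last 2 intervals are wide enough to hold differences as large as several of those above.

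Levels of different genes were compared per kilobase of exon, with lengths from the GENCODE 29 annotation of GRCh38 and not from the annotation used for counting. F3 was first in all conditions, with 226 CPM per kb in shGLO1#2, 210 in shGLO1#1 and 496 in shNT. PLAU was second, with 141 CPM per kb in shGLO1#2, 158 in shGLO1#1 and 87.9 in shNT, and PLAT came next, with 66.1 CPM per kb in shGLO1#2, 82.3 in shGLO1#1 and 41.4 in shNT. Below PLAT, the genes TFPI, SERPINB2 and PLAUR lay close together at 33.4, 32.1 and 30.6 CPM per kb in shGLO1#2, 34.6, 32.6 and 36.4 in shGLO1#1 and 29.3, 26.6 and 26.2 in shNT, and given the spread of SERPINB2 these neighbours have no clear order. SERPINE2 stood at 35.0 CPM per kb in shGLO1#2, 21.5 in shGLO1#1 and 17.6 in shNT. TFPI2 followed with 7.72 CPM per kb in shGLO1#2, 15.4 in shGLO1#1 and 10.2 in shNT, and THBD with 8.03 in shGLO1#2, 9.88 in shGLO1#1 and 8.52 in shNT. SERPIND1 was last at 1.02 CPM per kb in shGLO1#2, 1.10 in shGLO1#1 and 0.309 in shNT.

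The genes whose 2 fold changes against shNT lay nearest to those of 3 members, SERPIND1, F3 and SERPINE2, were looked up among 13154 genes with at least 1 CPM in their highest condition, by the Euclidean distance of the 2 log2 values. These members had the highest absolute log2 fold change against shNT in either clone, with SERPINE2 (0.991 in shGLO1#2) barely ahead of PLAT (0.990 in shGLO1#1). Nearest to F3 were CSPG4, a membrane chondroitin sulfate proteoglycan (distance 0.03), FRMD3 (0.04) and HSBP1L1 (0.08), all lower. SERPIND1 had HRASLS (0.02), RHBDL2 (0.06) and LRP4 (0.06) nearest to it, and SERPINE2 had TMTC1 (0.01), ARMCX6 (0.02) and OAF (0.03). The measure rests on the same 9 libraries as the members' own values and describes likeness only.

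Around these 10, 63 other genes of the plasminogen system, coagulation factors, anticoagulants, protease-activated receptors and clade B serpins were listed. Of these, 34 passed the filter on low counts. Plasminogen (PLG), prothrombin (F2), the fibrinogen chain FGA and factors F5, F7, F9, F10 and F11 were among the 29 not tested. Among the 34 tested, shGLO1#2 had 5 genes called above shNT and 2 called below it, where 7.68% of all genes tested were called, and shGLO1#1 had 4 above and 1 below, where 8.73% of all genes were called. VWF, SERPING1 and F2RL2 are among the 5 and SERPING1 among the 4, and these 3 genes passed the filter only through the shGLO1#2 libraries, where they are high, so no call is read from them. Of the 34, 5 met the minimum of the filter in fewer than 3 shNT libraries. Among the rest, 1 was called above and 2 below shNT in shGLO1#2, and 2 above and 1 below in shGLO1#1. The share of all genes called under this condition was not counted, so these counts are description only. At any fold change 10 of the 34 rose in shGLO1#2, beside 18.3% of all genes, and 10 fell, beside 19.8%. In shGLO1#1 11 rose, beside 22.6% of all genes, and 7 fell, beside 23.1%. The median log2 fold change of the 34 was 0.05 in shGLO1#2 and 0.11 in shGLO1#1. These lists too were chosen with earlier results of these data known, so the shares are description only.

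Of the 34, 10 passed the test in both clones without being called in either, and these are named after their values were seen. At any fold change 38.1% of all genes passed in shGLO1#2 and 45.7% in shGLO1#1. The share of all genes that passed in both was not counted, so the number is not read as a result about these systems. S100A10, the partner of annexin A2 at the cell surface, factor VIII (F8) and the receptor F2RL1 rose in both, by log2 0.57, 0.73 and 0.45 in shGLO1#2 and 0.18, 0.75 and 0.72 in shGLO1#1. The cargo receptor LMAN1 (log2 -0.53 in shGLO1#2, -0.16 in shGLO1#1), protein S (PROS1; -0.65 in shGLO1#2, -0.33 in shGLO1#1) and SERPINB8 (-0.58 in shGLO1#2, -0.35 in shGLO1#1) fell in both. The other 4 went opposite ways. ENO1 rose in shGLO1#2 (log2 0.27) and fell in shGLO1#1 (-0.59), while MCFD2 (-0.37 in shGLO1#2, 0.85 in shGLO1#1), GAS6 (-0.39 in shGLO1#2, 0.28 in shGLO1#1) and SPINT2 (-0.25 in shGLO1#2, 0.23 in shGLO1#1) fell in shGLO1#2 and rose in shGLO1#1.

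In the plasminogen list, 11 of 16 genes were tested, and LRP1 was the only one called against shNT. LRP1 is the endocytic receptor that clears complexes of activators with their serpins. It had 176, 115 and 115 CPM in shGLO1#2, 144, 160 and 138 CPM in shGLO1#1, and 56.4, 48.4 and 44.0 CPM in shNT (log2 1.45 in shGLO1#2, edgeR adjusted p = 4.39e-06, and 1.57 in shGLO1#1, edgeR adjusted p = 1.69e-06). All libraries of both clones were above shNT by a wide margin.

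Among coagulation factors and cofactors 8 of 19 were tested. GGCX, the vitamin K-dependent carboxylase that completes several clotting factors, had 113, 99.2 and 108 CPM in shGLO1#2 (log2 0.07, edgeR adjusted p = 0.381), 218, 206 and 217 CPM in shGLO1#1 (log2 1.07, edgeR adjusted p = 2.28e-08), and 103, 99.1 and 103 CPM in shNT. The clones differed from each other by log2 -1.01 (edgeR adjusted p = 3.22e-08). VWF, the carrier of factor VIII and 1 of the 5 endothelial markers, had 13, 11 and 18 counts in shGLO1#2, 5, 3 and 3 counts in shGLO1#1 and 2, 2 and 3 counts in shNT.

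Of the anticoagulants and protease inhibitors, 8 of 13 were tested. SERPINA1 is the inhibitor of neutrophil elastase. It had 121, 142 and 129 counts in shGLO1#2, 148, 152 and 139 in shGLO1#1, and 4, 22 and 20 in shNT. Its log2 fold change was 3.02 in shGLO1#2 (edgeR adjusted p = 2.04e-06) and 3.14 in shGLO1#1 (edgeR adjusted p = 9.86e-07). Only 2 of the 3 shNT libraries met the minimum of the filter, so the SERPINA1 call is description only. SERPING1, the C1 inhibitor that also blocks kallikrein and factor XIIa, had 80 counts over the shGLO1#2 libraries, 19 over the shGLO1#1 libraries and 1 over the shNT libraries. Scaled for depth, the ratio to shNT was 76.6 in shGLO1#2 (95% exact binomial interval 13.4 to 3061) and 17.6 in shGLO1#1 (2.80 to 731). These intervals cover counting error only, not the spread between libraries. SERPING1 passed the filter only through the shGLO1#2 libraries, where it is high, so no difference is read from these ratios. SPINT1, a membrane Kunitz-type inhibitor of hepatocyte growth factor activator and matriptase, went the other way, with 9.62, 8.43 and 8.502 CPM in shGLO1#2, 19.4, 24.1 and 22.4 CPM in shGLO1#1, and 66.6, 42.1 and 45.5 CPM in shNT (log2 -2.53 in shGLO1#2, edgeR adjusted p = 1.12e-07, and -1.22 in shGLO1#1, edgeR adjusted p = 1.72e-05). Without shNT replicate 1, the highest shNT library, the shGLO1#1 value was -0.99 and no longer called.

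The protease-activated receptors carry protease signals into the cell, and 3 of 4 were tested. F2RL1, the receptor cut by the tissue factor and factor VIIa complex and by trypsin-like proteases, was the most abundant. It had 629, 490 and 662 CPM in shGLO1#2, 738, 675 and 729 CPM in shGLO1#1, and 415, 386 and 500 CPM in shNT. The shGLO1#1 libraries were all above shNT, and 1 shGLO1#2 library, replicate 2, was not (log2 0.45 in shGLO1#2, edgeR adjusted p = 0.00391, and 0.72 in shGLO1#1, edgeR adjusted p = 9.93e-05). The thrombin receptor F2R did not pass, with log2 0.21 in shGLO1#2 (edgeR adjusted p = 0.0733) and -0.066 in shGLO1#1 (edgeR adjusted p = 0.571). F2RL2, a cofactor receptor for thrombin, had 16, 27 and 21 counts in shGLO1#2, 14, 10 and 9 counts in shGLO1#1, and 7, 12 and 10 counts in shNT.

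In the list of other clade B serpins 4 of 11 were tested, and SERPINB6, of the same clade, stood in the plasminogen list. SERPINB1, an intracellular inhibitor of neutrophil proteases, had 78.0, 73.8 and 77.6 CPM in shGLO1#2 (log2 -1.22, edgeR adjusted p = 3.99e-08), 186, 186 and 179 CPM in shGLO1#1 (log2 0.05, edgeR adjusted p = 0.594), and 188, 157 and 189 CPM in shNT. It was thus lower in shGLO1#2 than in every other library, and differed between the clones by log2 -1.27 (edgeR adjusted p = 2.86e-08). SERPINB6, named after its values were seen, averaged 68.5 CPM in shGLO1#2 (log2 -0.90, edgeR adjusted p = 2.44e-07), 141 CPM in shGLO1#1 (log2 0.14, edgeR adjusted p = 0.0731) and 128 CPM in shNT. SERPINB9 also fell in shGLO1#2 (log2 -0.34), with a value of -0.022 in shGLO1#1 that did not pass, and SERPINB7 did not pass in either clone.

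**Figure D4:**
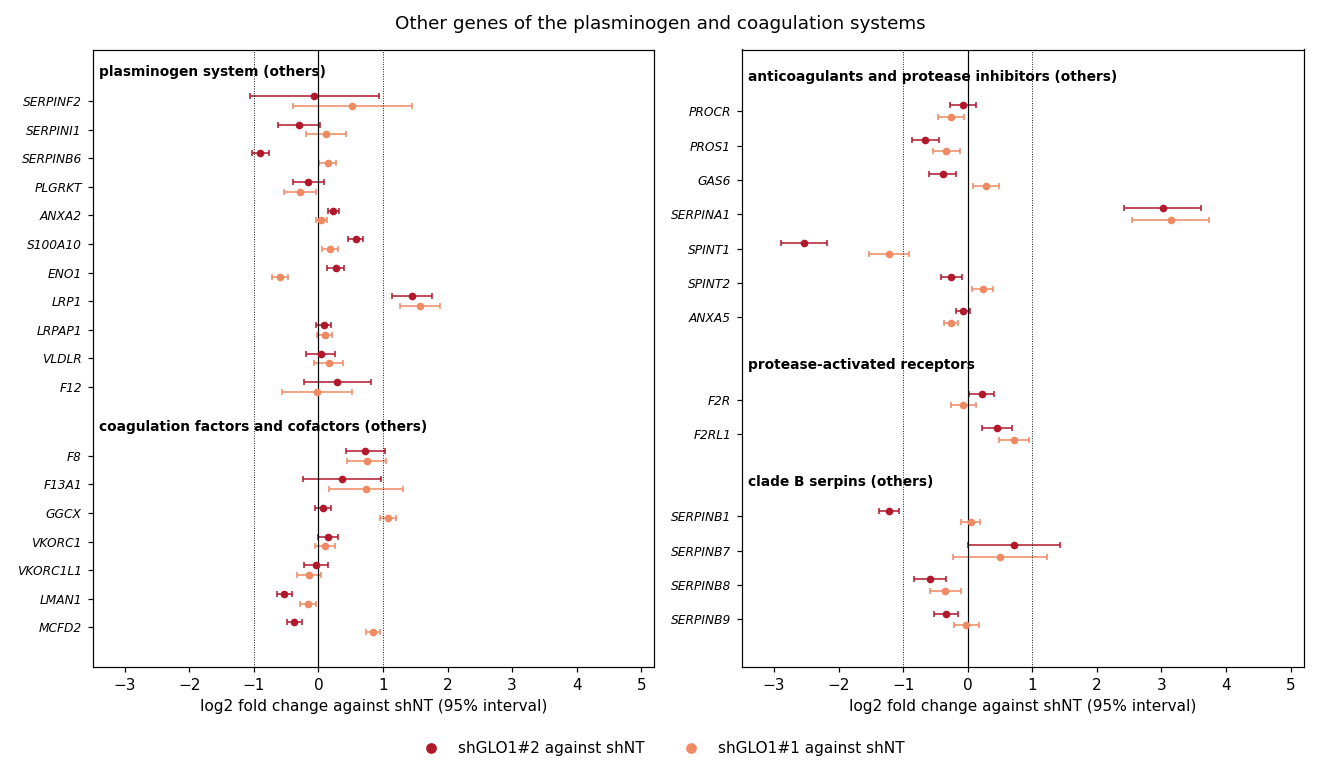
Log2 fold change against shNT (x axis, edgeR, with 95% interval) of 31 other genes of these systems, dark red for shGLO1#2 and orange for shGLO1#1, grouped by list. Both comparisons use the same shNT libraries, VWF, SERPING1 and F2RL2 are left out because they passed the filter only through shGLO1#2, and dotted lines stand at 1 and -1. LRP1 (1.45 in shGLO1#2, 1.57 in shGLO1#1), SERPINA1 (3.02 in shGLO1#2, 3.14 in shGLO1#1) and SPINT1 (-2.53 in shGLO1#2, -1.22 in shGLO1#1) are past the lines in both clones. GGCX is past them in shGLO1#1 alone and SERPINB1 in shGLO1#2 alone. SERPINA1 met the minimum of the filter in only 2 of the 3 shNT libraries.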

How the data were processed

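The authors sequenced unstranded polyA libraries, and their processing notes name bcl2fastq 2.17, TopHat2 2.1.1, HTSeq and the hg19 build. For HTSeq, neither annotation nor strand setting is stated in the sources used here. Raw gene counts were deposited for each library, with 78.7 to 79.5% of reads on genes in shGLO1#2, 77.1 to 77.9% in shGLO1#1 and 79.2 to 79.4% in shNT. No libraries were duplicates of one another. edgeR 4.0.16 (R 4.3.3; TMM, filterByExpr at 10 counts, quasi-likelihood test, 1 fit of 9 libraries) tested 13704 genes. CPM were computed with TMM-scaled depth. DESeq2 1.42.0, RLE scaling, other filters, a replicate block and leaving out each library were alternatives.

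The members and gene lists were chosen with earlier results of these data known. Named by rule were GLO1, the 10 members, listed genes called in a clone against shNT, and the genes nearest in fold change to 3 members; others are stated as named after their values were seen. Deviations of same-numbered libraries correlated at 0.21, 0.19 and 0.31 between shGLO1#2 and shNT. All were over 0.1, so the numbers were taken to pair these libraries. Between shGLO1#1 and shNT the correlations were -0.03, 0.06 and 0.25, and between the clones 0.20, 0.07 and 0.34. The main fit did not use the pairing, and values are from that fit unless another setting is named. One gene of the lists is not reported here. The fit was tested on simulated data.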

Additional observations from a re-analysis of the deposited data

Results flagged for a closer look

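Of the 10 genes, 6 were flagged because their difference from shNT was not the same in the clones, by the edgeR test of shGLO1#2 against shGLO1#1. By the same test 46.5% of all genes passed. The log2 difference was -0.998 for TFPI2 (edgeR adjusted p = 9.62e-05), 0.70 for SERPINE2 (1.70e-05), -0.32 for PLAT (0.000412), -0.30 for THBD (0.0143), -0.25 for PLAUR (0.0148) and -0.17 for PLAU (0.0150). All 3 libraries of shGLO1#2 were on 1 side of the 3 of shGLO1#1 for each, and the share of all genes that do so was not counted. With 3 libraries a condition, no single library was tested for standing apart from its own group.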

How the results depend on the processing

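Of 50 single-gene differences read under up to 15 other settings, 43 never changed sign, 44 never changed call and 41 never changed side of the adjusted p. Without the limit on fold change, 5221 genes (7 of the 10) passed in shGLO1#2 against shNT, 6267 (8 of the 10) in shGLO1#1 against shNT and 6369 (6 of the 10) between the clones. Leaving out 1 library at a time, 1 to 3 of the 10 were called in shGLO1#2 against shNT, and 0 to 1 between the clones. Between the clones, 1 of the 10 (TFPI2) was called with the replicate block and with a filter of 1 CPM on the mean. Under the replicate block, TFPI2 in shGLO1#2 (adjusted p = 0.00387) and THBD in shGLO1#1 (adjusted p = 0.0275) against shNT also passed the adjusted p, and no other call named here changed. Of the shGLO1#1 libraries only replicate 3 correlated best with the shNT library of its own number (0.25). The numbers were therefore not taken to pair shGLO1#1 with shNT. The replicate block was nevertheless fitted over all 9 libraries. Its values, those of THBD in shGLO1#1 and of TFPI2 among them, thus also rest on the numbers of shGLO1#1.

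Signs changed only in differences that did not pass the test, with 1 library left out. Against shNT, the values then ranged over -0.092 to 0.55 for SERPINB2 in shGLO1#2, and over -0.18 to 0.29 for F2RL2 and -0.037 to 0.096 for SERPINB1 in shGLO1#1. Between the clones they ranged over -0.036 to 0.25 for F3, -0.087 to 1.95e-05 for TFPI, -0.43 to 0.10 for SERPIND1 and -0.39 to 0.25 for SERPINB2. The cause of these changes was not tested beyond the use of fewer samples. RLE scaling moved the median of all genes by at most 0.0092. Each condition is 1 clone, so clone and silencing cannot be told apart, and SERPIND1, VWF, SERPING1 and F2RL2 rest on few counts.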
